A study of Mus musculus with 24 samples.

Results

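The 46 genes described here are transport and metabolism genes of the kidney tubule, most of them defining genes of the proximal tubule. They were taken as a named list and placed by their RefSeq positions on GRCm38.p6, the assembly also called mm10, where all 46 were found among 21883 protein-coding genes. The proximal tubule reclaims most of the filtered solute. Its brush border carries sodium-coupled carriers for glucose, phosphate, amino acids and monocarboxylates, and the receptors megalin and cubilin take up filtered proteins, while the basolateral side carries organic ion transporters and the cell makes glucose. When the tubule is injured, surviving cells lose much of this differentiated programme and switch on Sox9, a transcription factor of progenitor and repair states. The list is not wholly proximal, since Umod and Slc12a1 mark the thick ascending limb and Slc12a3 the distal convoluted tubule.

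Binding of Sox9 and the promoter mark H3K4me3 were profiled by CUT&RUN, in which an antibody directs a nuclease to cut chromatin around its target, in cells from male mice of 9 to 12 weeks with the genotype Sox9IRES-CreERT2/+:R26RtdT/+. All groups carried this genotype, underwent bilateral renal ischaemia-reperfusion injury and received tamoxifen when the injury was made, so the sorted tdTomato-positive cells were those with Cre activity from the Sox9 locus around that time, together with their progeny. There were 4 biological replicates at 10 days and 4 at 48 h, and every pellet was shared out between Sox9, H3K4me3 and input. Group times follow the titles, since the cell type label reads day 10 also in samples titled 48 h. Uninjured kidneys and Sox9-negative cells were not analysed here, so the lists describe injured Sox9-lineage cells alone.

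The measurement is the presence of a peak summit near a gene in each of 16 deposited peak lists. Lists held 7706 to 85415 Sox9 peaks and 25811 to 88496 H3K4me3 peaks on chromosomes 1 to 19, X and Y, and read depth is unknown. The longest list of both antibodies was 10d replicate 1. Peak heights, solved from the deposited fold and p-value, came in whole multiples of a list-specific step, and most peaks stood at exactly 1 step. The positive-control mark was itself sparse. Over 20 housekeeping genes an H3K4me3 summit lay within 1000 bp of a gene end in 25.6% of gene-library pairs, against 17.3% over all genes. Pgk1 had one in 8 of 8 libraries, and Actb, Hprt, Tbp and Ywhaz had none in any. Sox9 also had an end peak at Pgk1 in 8 of 8 libraries. Over the same 20 genes Sox9 had an end peak in 16.9% of pairs, against 9.98% over all genes. The ratio to genes of the same length was 1.63 for Sox9 and 1.41 for H3K4me3, so these genes did not set the mark apart from the factor. At the ends of the Sox9 gene itself, its own factor was called in 1 of the 4 10-day libraries and in 2 of the 4 48-h ones. The 8 injured-tubule markers had an end peak in 7 of 64 pairs for Sox9 (10.9%, against 9.98% over all genes) and in 3 of 64 for H3K4me3 (4.69%, against 17.3%).

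Sox9 peaks were found at the ends of few of these genes. Within 1000 bp of either gene end, a Sox9 peak was present in 6, 3, 1 and 1 of the 46 members in the 10-day libraries 1 to 4, and in 2, 0, 4 and 3 in the 48-h libraries. The longest list gave the highest number, and the ranges of the times overlapped. This is 20 of 368 gene-library pairs, or 5.43%, against 9.98% over all protein-coding genes. In all, 13 of 46 members had such a peak in at least 1 library, against 51.5% of all genes. Only 4 members had one in at least 2 libraries (20.1% of all genes), namely Slc5a1, Slc47a1, Slc27a2 and Slc7a8. The deficit was already visible in earlier results of these data, and the members were chosen with those known, so it is described without a test.

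H3K4me3 peaks lay at the ends of more members. They were present at 16, 3, 6 and 9 members in the 10-day libraries and at 3, 6, 4 and 4 in the 48-h libraries, which is 51 of 368 pairs, or 13.9%, against 17.3% over all genes. At least 1 library had a peak at 35 of 46 members (68.3% of all genes). At least 2 libraries had one at 12 members (40.2% of all genes) and at least 3 libraries at 3 members, Slc5a8, Slc22a12 and Pck1 (19.5% of all genes). Slc5a8 alone reached 4 libraries (7.53% of all genes). At 9 members (19.6%, against 21.5% of all genes) neither antibody had a peak at an end in any library, namely Dab2, Slc2a2, Slc22a6, Slc22a30, Slc6a18, Slc4a4, Slc13a1, Umod and Slc12a1.

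**Figure D1:**
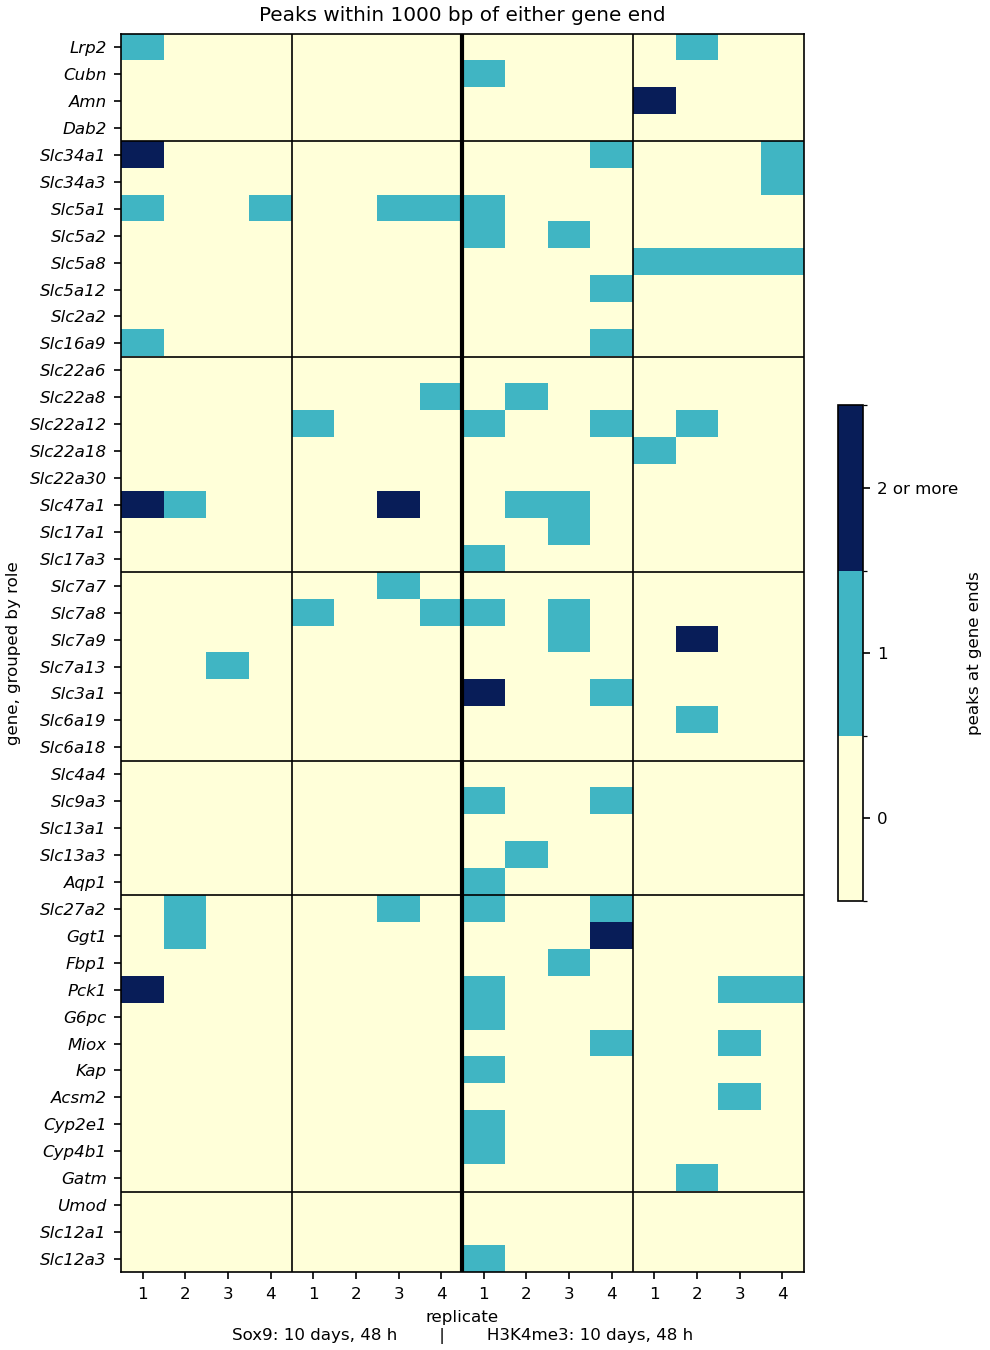
Number of peak summits within 1000 bp of either end of each of the 46 genes (rows, grouped by role, with a line between roles) in each of the 16 libraries (columns, by antibody, time and replicate); the colour gives 0, 1, or 2 or more peaks. Slc5a8 is filled in all 4 of the 48-h H3K4me3 libraries and in no 10-day library, and Slc5a1 in 4 of the 8 Sox9 libraries.

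The starts of 6 of the 7 members with a start peak in at least 2 libraries of an antibody are shown with the 250 bases before the transcription start of the RefSeq promoter table (GRCm38.p6), 5′ to 3′, because it is next to these bases that the peaks described below were placed. Capitals mark matches on either strand to a first Sox core motif (ACAAT, read on the other strand as ATTGT), a second Sox core motif (ACAAAG, read on the other strand as CTTTGT) and a short motif of the tubule factor HNF1 (GTTAAT, read on the other strand as ATTAAC). The motifs overlapped one another nowhere in these windows. Slc3a1, which tied with Miox at 2 libraries, was left out by alphabetical order. The Slc34a1 window runs a short way into the RefSeq gene span.
Slc5a8 (chr10:88885742-88885991, plus strand): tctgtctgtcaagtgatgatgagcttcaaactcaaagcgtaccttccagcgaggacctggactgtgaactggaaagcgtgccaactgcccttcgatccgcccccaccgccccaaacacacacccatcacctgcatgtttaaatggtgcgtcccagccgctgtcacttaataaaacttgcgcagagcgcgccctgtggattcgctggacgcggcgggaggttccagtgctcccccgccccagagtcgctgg
Slc5a1 (chr5:33103969-33104218, plus strand): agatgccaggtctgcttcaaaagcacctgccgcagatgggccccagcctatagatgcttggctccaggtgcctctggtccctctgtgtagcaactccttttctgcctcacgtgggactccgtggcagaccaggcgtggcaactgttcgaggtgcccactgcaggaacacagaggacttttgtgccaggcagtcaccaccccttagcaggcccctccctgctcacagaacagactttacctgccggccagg
Slc27a2 (chr2:126552774-126553023, plus strand): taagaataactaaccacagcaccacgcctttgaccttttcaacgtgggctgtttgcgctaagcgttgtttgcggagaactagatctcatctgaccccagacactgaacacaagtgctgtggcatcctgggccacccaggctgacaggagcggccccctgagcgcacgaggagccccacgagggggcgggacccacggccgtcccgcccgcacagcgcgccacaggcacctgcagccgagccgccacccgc
Pck1 (chr2:173152823-173153072, plus strand): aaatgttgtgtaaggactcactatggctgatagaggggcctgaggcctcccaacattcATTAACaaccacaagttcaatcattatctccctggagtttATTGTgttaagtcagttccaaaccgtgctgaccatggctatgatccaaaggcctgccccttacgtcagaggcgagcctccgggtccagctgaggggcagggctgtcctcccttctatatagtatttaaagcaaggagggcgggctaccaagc
Slc34a1 (chr13:55399398-55399647, plus strand): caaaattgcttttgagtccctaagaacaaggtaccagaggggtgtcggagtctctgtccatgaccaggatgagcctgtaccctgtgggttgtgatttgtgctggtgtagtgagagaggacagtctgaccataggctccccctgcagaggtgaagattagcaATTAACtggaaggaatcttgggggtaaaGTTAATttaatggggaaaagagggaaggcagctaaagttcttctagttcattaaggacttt
Miox (chr15:89334223-89334472, plus strand): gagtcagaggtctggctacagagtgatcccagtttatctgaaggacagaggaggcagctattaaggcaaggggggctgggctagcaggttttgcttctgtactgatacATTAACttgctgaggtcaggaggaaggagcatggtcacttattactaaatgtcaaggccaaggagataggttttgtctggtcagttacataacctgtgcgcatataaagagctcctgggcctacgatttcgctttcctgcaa

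A Sox core was found in 1 of these 6 windows, that of Pck1, and also in that of Slc3a1, which is not shown. None was found in the windows of Slc5a1 and Slc27a2, which had the most Sox9 libraries at their starts. A match describes letters and is not a binding site. Of the 40 members in the promoter table, 12 (30.0%) held one of the Sox cores, against 36.1% of 17491 promoters. The HNF1 motif was in 8 of 40 (20.0%), against 5.95% of all promoters. Its holders were Acsm2, G6pc, Miox, Pck1, Slc22a6, Slc22a8, Slc34a1 and Umod. The motif CAAAGTCCA of the proximal tubule factor HNF4 was in 1 of 40 (Slc3a1), against 0.366% of all promoters. These promoters were also poor in CpG, with a median of 3 CpG in 250 bases against 10 over all promoters, and a median GC content of 51.2% against 55.2%.

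The CpG number went with the presence of peaks at starts over all genes, and matching by it raised the members' ratios. For H3K4me3 a summit lay within 1000 bp of the start in 4.84% of pairs for promoters of 0 to 4 CpG, 14.1% for 5 to 16 CpG and 22.8% for 17 or more. The members gave 8.15% (15 of 184 pairs, 23 genes), 12.5% (10 of 80 pairs) and 17.9% (10 of 56 pairs) in the same classes. For Sox9 all genes gave 3.10%, 7.34% and 12.0%, and the members 1.63%, 6.25% and 7.14%. Over 40 member starts, 35 pairs had an H3K4me3 peak where all genes of the same length gave 47.8 and all genes of the same CpG number gave 30.5. The ratio was therefore 0.733 by length and 1.15 by CpG. For Sox9, 12 pairs stood against 25.4 by length (ratio 0.473) and 17.2 by CpG (ratio 0.700). Over libraries the CpG-matched ratio was 1.25 ± 0.653 (SD, n = 8) for H3K4me3 and 0.793 ± 0.597 (SD, n = 8) for Sox9. For H3K4me3 all 4 of the 48-h libraries lay above 1 (1.22, 1.94, 1.21 and 1.27; mean 1.41 ± 0.357, SD, n = 4) and the 10-day libraries on both sides of it (1.14, 0.394, 0.503 and 2.35; mean 1.10 ± 0.896, SD, n = 4). By length the 48-h mean of the same starts was 0.919 ± 0.222 (SD, n = 4) and the 10-day mean 0.702 ± 0.585 (SD, n = 4), so at 48 h the CpG-matched mean was the farther from 1. The CpG match was chosen after the data were seen.

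Summits of both antibodies gathered just downstream of transcription starts over all genes, and at the members the gathering was plain for H3K4me3 alone. In the first 1000 bp of the gene, all 17491 genes gave 9.99 H3K4me3 summits per 100 gene-library pairs and the 40 members 8.75, against a mean of 2.27 and 2.63 in the bins at least 1000 bp upstream or 2000 bp downstream. For Sox9, all genes gave 5.25 and the members 2.50, against 1.39 and 1.58 in the outer bins. The Sox9 value of the members lay inside the range of their own outer bins (0.313 to 2.81) and rests on 8 summits. Around the start (1000 bp on each side), a Sox9 peak was present in 3.75% of member pairs and 7.35% of all pairs, and at the 3′ end in 1.56% and 3.19%.

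**Figure D2:**
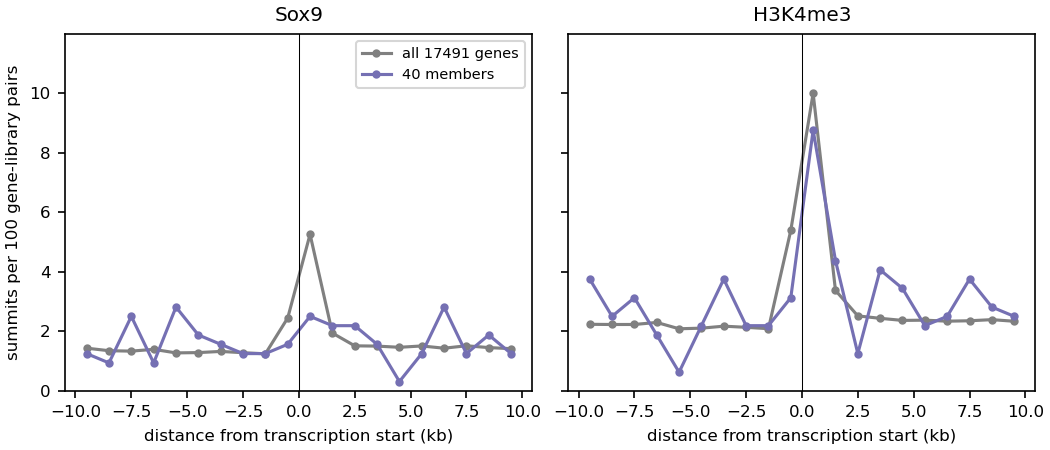
Peak summits per 100 gene-library pairs (8 libraries of each antibody) in bins of 1000 bp against the distance from the transcription start in kb, for all 17491 genes with a start (grey) and for 40 members (purple). Both antibodies peak in the first bin of the gene over all genes, at 5.25 for Sox9 and 9.99 for H3K4me3, where the members stand at 2.50 and 8.75.

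In the wide window, which takes in the ends, a peak of either antibody was present at about as many members as genes of the same length give, while the number of peaks was somewhat lower. In the gene with 10000 bp on each side, a Sox9 peak was present at 40, 20, 18 and 25 members at 10 days and at 12, 19, 19 and 19 at 48 h. H3K4me3 peaks were present there at 41, 29, 41 and 31 members at 10 days and 28, 29, 33 and 21 at 48 h. The ratio to the number given by all genes of the same length was 0.998 ± 0.137 (SD, n = 4) for Sox9 at 10 days and 0.990 ± 0.159 (SD, n = 4) at 48 h, and 1.08 ± 0.0507 (SD, n = 4) and 1.02 ± 0.115 (SD, n = 4) for H3K4me3. The ratio of peak numbers in this window was 0.863 ± 0.134 (SD, n = 4) and 0.924 ± 0.166 (SD, n = 4) for Sox9 and 0.968 ± 0.0785 (SD, n = 4) and 0.845 ± 0.101 (SD, n = 4) for H3K4me3, for which all 4 of the 48-h libraries were below 1 (0.702 to 0.924). At the ends the ratio of members with a peak was 0.480 ± 0.355 (SD, n = 4) and 0.736 ± 0.503 (SD, n = 4) for Sox9 and 0.826 ± 0.485 (SD, n = 4) and 0.696 ± 0.216 (SD, n = 4) for H3K4me3, and it was below 1 in 7 of 8 libraries of each antibody. For no antibody did the 10-day and 48-h values of these ratios stand apart, so a change with time was not seen for the genes as a set. A Sox9 peak was found in the wide window of 45 of 46 members in at least 1 library (93.8% of all genes), Miox having none. It recurred in at least 6 of 8 libraries at 10 members (18.2% of all genes) and in 8 of 8 at 1, Slc4a4 (3.48% of all genes). H3K4me3 reached 46 of 46 members (96.7% of all genes), 25 in at least 6 libraries (41.9%) and 6 in 8 of 8 (12.8%).

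Single members were then compared between the times, and 2 of them stood apart, Dab2 for Sox9 in the wide window and Slc5a8 for H3K4me3 at its start. No member passed after adjustment, nor did any gene (0% for both antibodies and both windows). With 4 against 4 libraries the smallest exact permutation p is 0.0286. A gene could therefore pass only if most genes tested reached it, so these zeros do not show that no gene differs. In the wide window an unadjusted exact permutation p under 0.05 was reached for Sox9 by 1 of 45 members tested (1.58% of all genes tested). The count for H3K4me3 was 0 of 46 (2.01% of all genes tested). Both counts are near those shares, so Dab2 is described as a single gene and not as a trait of the members. The H3K4me3 groups stood apart with higher 10-day values at 0 members (1.24% of all genes tested) and with higher 48-h values at 0 members (0.77%). At gene ends an unadjusted exact permutation p under 0.05 was reached for Sox9 by 0 of 13 members with a peak. Of the 11261 genes with a Sox9 end peak, 0.0444% reached it (0.0355% present at 10 days alone and 0.00888% at 48 h alone). For H3K4me3 it was reached by 1 of 35 members, against 0.348% of the 14956 genes with an H3K4me3 end peak.

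**Figure D3:**
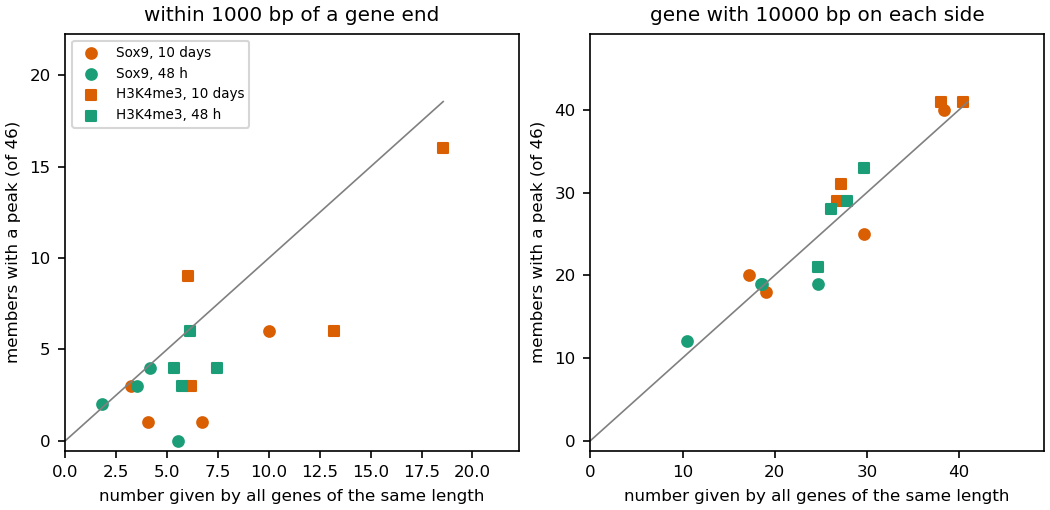
Number of the 46 members with a peak in each library (vertical axis) against the number that all protein-coding genes of the same length give (horizontal axis), at gene ends (left) and in the gene with 10000 bp on each side (right). Circles are Sox9 and squares H3K4me3, orange 10 days and green 48 h, and the grey line marks equality; 14 of the 16 points lie below it on the left, while the points on the right scatter around it.

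Few of these peaks were tall and few recurred at one place. Of 327 distinct Sox9 peaks in the wide windows of members, 10 (3.06%) reached 2 steps, against 3.36% of all Sox9 peaks, and of 535 H3K4me3 peaks 21 (3.93%), against 4.68%. At ends a peak of 2 steps was found at 1 member for Sox9 (Slc47a1; 4.41% of all genes) and at 2 for H3K4me3 (Lrp2 and Slc12a3; 19.8% of all genes). Merged Sox9 regions with a peak in at least 2 libraries were 8 of 316 at members (2.53%), against 3.84% for the windows of all genes, and H3K4me3 regions 24 of 505 (4.75%), against 6.30%.

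**Figure D4:**
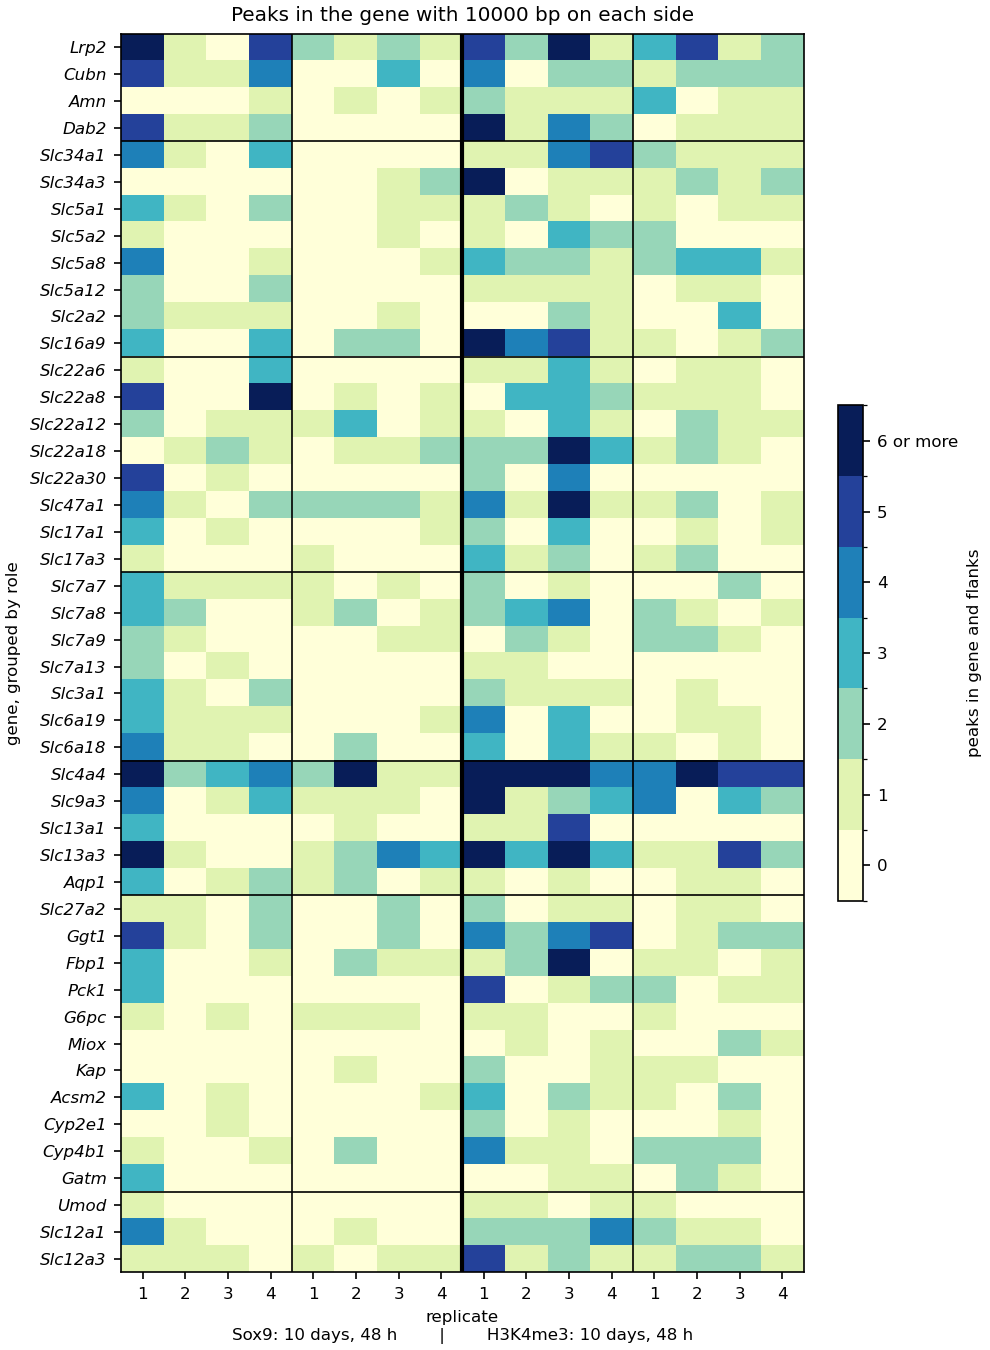
Number of peak summits in each of the 46 genes with 10000 bp on each side (rows, grouped by role) in each of the 16 libraries (columns, by antibody, time and replicate), with colours from 0 to 6 or more. The 445799 bp gene Slc4a4 is filled in every column, Dab2 is empty in the 4 Sox9 columns of 48 h, and the 10-day replicate 1 columns hold the most peaks for Sox9.

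The endocytic receptors are the group that takes up filtered protein. An end peak was present in 1 of their 32 pairs for Sox9 and 3 of 32 for H3K4me3, where all genes of the same length give 3.61 and 5.85 pairs. Lrp2, the receptor megalin (chr2:69424335-69586029, minus strand), had a Sox9 peak 479 bp upstream of its start in 10d replicate 1 and a 2-step H3K4me3 peak 182 bp downstream of it in 48h replicate 2. In its wide window Lrp2 held 6, 1, 0 and 5 Sox9 peaks at 10 days and 2, 1, 2 and 1 at 48 h, with overlapping groups. Cubn, its partner receptor cubilin, held 5, 1, 1 and 4 Sox9 peaks and then 0, 0, 3 and 0, and its one end peak, of H3K4me3, lay at the 3′ end. Amn, which carries cubilin to the membrane, had 2 H3K4me3 end peaks in 48h replicate 1, of which one lay 487 bp after its start.

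Dab2, the adaptor that links megalin to the clathrin coat, was the only member whose times stood apart in Sox9 peaks of the wide window. Its window (gene chr15:6299788-6440715, plus strand) held 5, 1, 1 and 2 Sox9 peaks in the 10-day libraries and 0, 0, 0 and 0 in the 48-h libraries. All 10-day libraries were above all 48-h libraries. The Sox9 lists held a mean of 39320 peaks at 10 days and 16760 at 48 h. Those of 10d replicates 2 and 3 held 14793 and 17382 peaks and that of 48h replicate 2 held 26520. The part of list length in the difference was not tested. Per 10000 peaks of a list this was 0.585 ± 0.0706 (SD, n = 4) against 0 in every library. The two-sided exact permutation test gave p = 0.0286, the smallest that 70 arrangements allow, and 1 after Benjamini-Hochberg adjustment over 20534 genes. Groups stood apart with higher 10-day values at 1 of 45 members tested, against 0.886% of all genes tested. Higher 48-h values stood apart at 0 members, against 0.692%. The 9 peaks were all of 1 step and 8 of them lay inside the gene, spread from 44387 to 133624 bp after its start, so no position recurred. Among the 7706 peaks of lowest p of each list the excess of 10-day libraries was 1 in place of 4. H3K4me3 peaks in the same window numbered 12, 1, 4 and 2 at 10 days and 0, 1, 1 and 1 at 48 h (0.709 ± 0.449 against 0.239 ± 0.167 per 10000 peaks, SD, n = 4; exact permutation p = 0.0571, adjusted p = 1), and these groups overlapped.

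Among the carriers of phosphate, glucose and monocarboxylates, an end peak was present in 6 of 64 pairs for Sox9 and 12 of 64 for H3K4me3, close to the 6.81 and 12.1 given by length. Slc5a8, a sodium-coupled carrier of lactate and other monocarboxylates, had the clearest difference between the times. At its start H3K4me3 was called in none of the 10-day libraries (0 of 4) and in each 48-h library (4 of 4). The summits were 423, 300, 323 and 455 bp after the start in 48h replicates 1 to 4, beyond the last base of the sequence shown above. The 4 peaks were 110 to 139 bp wide and formed 1 region, chr10:88886222-88886523. Presence did not overlap between the times. The 10-day H3K4me3 lists were on average the longer (10d replicates 1 and 3 held 88496 and 74368 peaks), and the part of list length was not tested. Of 14956 genes with an H3K4me3 peak at an end, 3 (0.0201%) showed this pattern, and 1 of them was Slc5a8. In the opposite direction 49 genes (0.328%) did, with 0 members among them. The exact permutation p was 0.0286 and the adjusted p was 1. All 4 peaks were of 1 step, and none was among the 7706 peaks of lowest p of its list, the length of the shortest list. Their folds stood at the 8.79 to 19.2 percentile of their lists, which among peaks of one height means a higher local background than most. At one height the p-value follows the same background, so the results by p and by fold are not separate. The wide window of Slc5a8 held H3K4me3 peaks at both times (3, 2, 2 and 1 at 10 days; 2, 3, 3 and 1 at 48 h), and no Sox9 peak lay at its ends in any library.

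Slc5a1, the glucose carrier SGLT1, had a Sox9 end peak in 4 of 8 libraries, the most of any member (1.58% of all genes reached 4 libraries, 6.32% at least 3). Summits lay 81 bp after its start in 10d replicate 4, 566 bp after it in 48h replicate 3 and 171 bp before it in 48h replicate 4, the last inside the sequence shown. In 10d replicate 1 the summit lay beyond the 3′ end. The peaks of the start did not overlap one another, and H3K4me3 was present there in 10d replicate 1 alone, 96 bp after the start. Slc34a1, the main renal phosphate carrier, had a Sox9 peak 45 bp after its start in 10d replicate 1 and H3K4me3 peaks at 442 bp before it in 10d replicate 4 and 197 bp after it in 48h replicate 4. Slc34a3, a second phosphate carrier, had an H3K4me3 region in 3 libraries (chr2:25242777-25242981) 8609 bp upstream of its start, and each of its peaks lay within 1000 bp of an end of another gene, Rnf208.

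**Figure D5:**
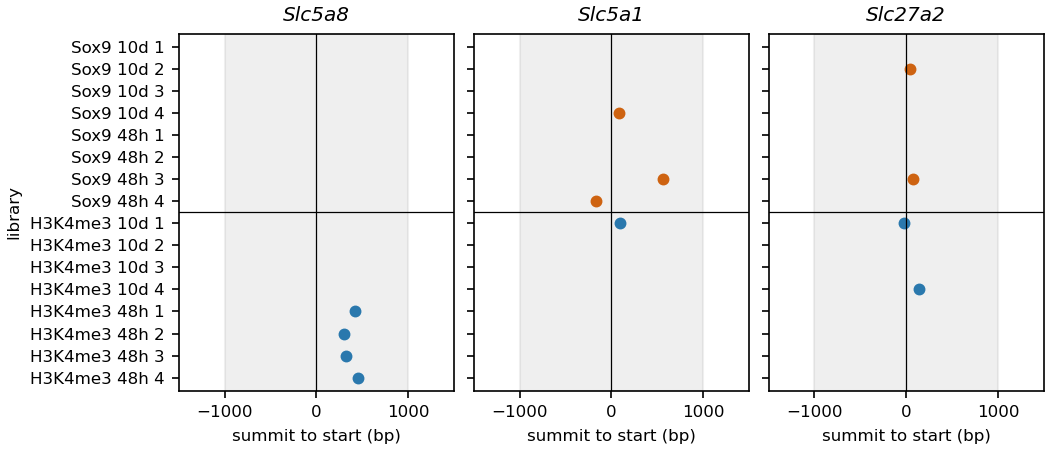
Distance in bp of each peak summit from the transcription start of Slc5a8, Slc5a1 and Slc27a2 (one panel each) in each of the 16 libraries (rows, by antibody, time and replicate), with Sox9 in orange, H3K4me3 in blue and the 1000 bp on each side shaded. The H3K4me3 summits of Slc5a8 lie 300 to 455 bp after the start in all 4 of the 48-h libraries and in no 10-day library, the Sox9 summits of Slc5a1 are spread from -171 to 566 bp, and those of Slc27a2 lie at 40 and 75 bp.

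For the carriers of organic anions, cations and urate the counts were 5 of 64 pairs for Sox9 and 9 of 64 for H3K4me3, against 6.64 and 11.8 by length. Slc47a1, which exports organic cations into the urine, had Sox9 end peaks in 3 libraries (10d replicates 1 and 2 and 48h replicate 3). One region near its higher-coordinate end, chr11:61377881-61378176, was present in all 3. Its 2-step Sox9 peak in 10d replicate 1 lay at the other end, which is within 1000 bp of an end of Slc47a2, as did both of its H3K4me3 end peaks. Per 10000 peaks the wide window of Slc47a1 held 0.412 ± 0.289 Sox9 peaks at 10 days and 1.30 ± 0.909 at 48 h (SD, n = 4; exact permutation p = 0.0571, adjusted p = 1), a difference within the overlap of the groups. Slc22a12, the urate exchanger URAT1, had H3K4me3 end peaks in 3 libraries, of which 1 lay 199 bp before its start and 2 beyond its 3′ end, and a Sox9 peak 367 bp after its start in 48h replicate 1. Slc22a6 and Slc22a8, the basolateral organic anion carriers, are neighbours that share flanking sequence. Slc22a8 had a Sox9 peak 48 bp before its start in 48h replicate 4 and an H3K4me3 peak 181 bp before it in 10d replicate 2, while Slc22a6 had none at either end.

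The amino acid carriers gave 4 of 56 pairs for Sox9 and 7 of 56 for H3K4me3, against 5.75 and 10.4 by length, and none of them met the rule for naming at an end. Their H3K4me3 end peaks were at Slc7a8 and Slc7a9, which are light chains of amino acid exchangers, at Slc3a1, the heavy chain of the cystine carrier, and at Slc6a19, the neutral amino acid carrier. The group of bicarbonate, proton, water, sulphate and dicarboxylate carriers had an end peak in 0 of 40 pairs for Sox9 and 4 of 40 for H3K4me3, against 4.53 and 7.72 by length. Slc4a4, the basolateral bicarbonate cotransporter and the longest member, had no end peak of either antibody but the most peaks in its wide window, 14, 2, 3 and 4 for Sox9 at 10 days and 2, 7, 1 and 1 at 48 h.

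Slc13a3, the sodium-coupled dicarboxylate carrier, held the place most often shared by the antibodies. In its interior, 42206 bp from the start, chr2:165430834-165431148 had a Sox9 peak in 3 libraries (10d replicates 1 and 2 and 48h replicate 1, the last of 2 steps). H3K4me3 had a peak in 4 libraries (10d replicates 2, 3 and 4 and 48h replicate 3) at chr2:165430814-165431275. The folds of these 7 peaks stood at the 0.223 to 6.16 percentile of their lists, so the local background there was among the higher ones. Over the wide window Sox9 peaks numbered 8, 1, 0 and 0 at 10 days and 1, 2, 4 and 3 at 48 h. Per 10000 peaks this was 0.403 ± 0.478 against 1.58 ± 0.743 (SD, n = 4; exact permutation p = 0.0571, adjusted p = 1), and the groups overlapped.

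The metabolic genes gave 4 of 88 pairs for Sox9, against 9.06 by length, and 15 of 88 for H3K4me3, against 16.1 by length. The H3K4me3 share (17.0%) was near the 17.3% of all genes. Each of the 11 had an H3K4me3 end peak in at least 1 library, as did 68.3% of all genes. Slc27a2, a fatty acid carrier and acyl-CoA synthetase, was the member whose start was marked by both antibodies in 2 libraries each. Sox9 summits lay 40 bp after its start in 10d replicate 2 and 75 bp after it in 48h replicate 3, in 1 region (chr2:126552967-126553320) whose first bases are the last of the sequence shown. H3K4me3 summits lay 22 bp before the start in 10d replicate 1 and 141 bp after it in 10d replicate 4. The folds of these peaks were low within their lists (1.38 to 1.88 percentile for Sox9, 0.645 to 0.920 for H3K4me3). Pck1, the enzyme that commits carbon to glucose synthesis, had Sox9 peaks 933 bp before and 635 bp after its start in 10d replicate 1, where H3K4me3 also had one 29 bp after it. Further H3K4me3 end peaks of Pck1 lay 871 bp after the start in 48h replicate 3 and at the 3′ end in 48h replicate 4. Miox, which breaks down inositol, had H3K4me3 peaks 46 and 951 bp after its start in 10d replicate 4 and 48h replicate 3. Cyp4b1, a cytochrome P450, had a region 2469 bp upstream of its start (chr4:115650080-115650300) with H3K4me3 in 10d replicate 1 and 48h replicates 2 and 3, and a 2-step Sox9 peak of 48h replicate 2 overlapped it. Of the genes of other segments, Slc12a3 had a 2-step H3K4me3 peak 254 bp after its start in 10d replicate 1, which was 1 of 24 pairs against 4.62 by length, and Sox9 had 0 of 24 against 2.60.

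Within a pellet, both antibodies had an end peak at the same member in 3 of 368 gene-pellet pairs (0.815%, against 2.81% over all genes), namely at Slc5a1 and Pck1 in 10d replicate 1 and at Slc47a1 in 10d replicate 2. The count takes either end of a gene for each antibody. At Slc5a1 and Slc47a1 the 2 antibodies had their peaks at opposite ends, and only at Pck1 did both lie at the same end, the start. The members' shares for each antibody alone were also below those of all genes (5.43% and 13.9% of pairs). Of the 327 Sox9 peaks in the wide windows of members, 7 overlapped an H3K4me3 peak of the same pellet. The share was 0% to 5.71% per pellet (mean 2.81%), against 1.79% to 4.73% for all Sox9 peaks (mean 2.98%), so the overlap was near that of all peaks.

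A further 66 proximal tubule genes, none of them among the 46, gave a higher Sox9 share and a similar H3K4me3 share. They had a Sox9 end peak in 50 of 528 pairs (9.47%, ratio to genes of the same length 0.897) and an H3K4me3 end peak in 65 of 528 (12.3%, ratio 0.657). The 46 members stood at ratios of 0.513 and 0.743. The difference between the lists was not tested. Marker lists of 5 other cell types, namely endothelium, immune cells, stroma, podocytes and collecting duct, had Sox9 end peaks in 7.50% to 12.5% of pairs and H3K4me3 end peaks in 7.50% to 21.9%. The part of other cells in the members' values was not tested. Without 10d replicate 1 the mean share of members with a Sox9 end peak at 10 days was 3.62% in place of 5.98%. Over all genes the share was 20.7% in that library and 6.66%, 8.19% and 13.8% in 10d replicates 2 to 4. Without 10d replicate 1 the mean ratio to genes of the same length was 0.440 in place of 0.480.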

How the data were processed

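Peak lists of 16 antibody libraries (4 replicates of Sox9 and of H3K4me3 at each time) were used, and the 8 input samples entered only as the authors' controls. The authors called each list against its own pellet's input, per the file headers' peak names. Partek 10, Bowtie2, Bowtie and MACS3 with mm10 were used, per the submitters' processing notes, while read filters and scaling are not given in the sources used here, nor is the caller's threshold. The deposited fold is the authors' ratio of pileup to local background at the summit. The −log10 p-value and −log10 q-value are the authors' deposited values, and the deposited score was not used. Depth is unknown, so precision rests on 4 libraries per group.

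Pileups were solved from fold and p-value under a Poisson tail and divided by the list's step (whole within 0.05). Summits were counted within 1000 bp of either gene end, or in the gene with 10000 bp on each side, for the RefSeq genes of GRCm38.p6. Strand and the 250 bases upstream came from the RefSeq promoter table, which held 40 of 46 members. The number given by length is the sum, over members, of the share of all genes in the member's length decile (10 bins) that had a peak. Times were compared gene by gene with a two-sided exact permutation test of 4 against 4 libraries (70 arrangements), adjusted by the Benjamini-Hochberg method over all genes with a peak; window counts, heights and tests were tested on simulated data. Regions were merged peaks sharing at least 1 bp. Each sample was split in aliquots, per the labels' protocols. Libraries with the same time and number in the titles were taken as aliquots of 1 pellet.

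Members, gene lists and tests were chosen with earlier results of these data known. Members named with values were those with an end peak in at least 3 of 8 libraries of an antibody, a 2-step end peak, a region in at least 3 libraries or times that did not overlap, and the endocytic receptors; promoters shown were up to 6 with a start peak in at least 2 libraries. Slc27a2, Slc34a1 and Miox are described with their promoters, and Slc22a8, Slc22a6, Slc4a4, Slc7a8, Slc7a9, Slc3a1 and Slc6a19 were added after their values were seen. Software was pandas 2.3.3 and NumPy 2.4.6 under Python 3.11.15, with Matplotlib 3.10.9 for plots and SciPy 1.17.1 for distributions.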

Additional observations from a re-analysis of the deposited data

Results flagged for a closer look

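Single libraries stood apart from the other 3 of their group in 3 values (Dixon's test at the 95% level). Only some named members were tested, where the group's peak numbers ranged over at least 4. Chance gives about 1 in 20 groups for normally distributed values. For small counts and tied values that rate is not known, so the number of flags is not set against chance. The share of members with a Sox9 peak in the gene and flanks was 26.1% in 48h replicate 1, the library with the shortest list (7706 peaks), against 41.3% in each of the other 48-h libraries. Over all genes it was 20.8% in 48h replicate 1, against 48.8%, 36.6% and 36.7% in 48h replicates 2 to 4. The ratio to genes of the same length was 1.15 in 48h replicate 1, against 0.768, 1.02 and 1.02, so by that ratio the members were not low there. Slc13a3 held 8 Sox9 peaks in 10d replicate 1, against 1, 0 and 0 in the other 10-day libraries. Slc34a3 held 6 H3K4me3 peaks in 10d replicate 1, against 0, 1 and 1. Both high values are from the longest lists of their antibodies (85415 and 88496 peaks).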

How the results depend on the processing

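Values are given in the order Sox9 at 10 days, Sox9 at 48 h, H3K4me3 at 10 days and H3K4me3 at 48 h, and the cause of each change was not tested unless the setting's construction shows it. Over all genes the mean share with a peak at an end was 12.3%, 7.64%, 22.1% and 12.5%. For peaks of 2 or more steps it was 0.841%, 0.394%, 4.93% and 0.943% over all genes. The mean share of members with a peak at an end was 5.98%, 4.89%, 18.5% and 9.24%. It was 21.7%, 12.0%, 34.2% and 23.4% with a 3000 bp window, 0.543%, 0%, 0.543% and 0.543% for peaks of 2 or more steps, 1.62%, 3.02%, 2.81% and 2.48% as the number given when every list is thinned to the shortest (7706 peaks), and 1.09%, 2.17%, 0.543% and 0% with that many peaks of lowest p from each list. Without single replicates it ranged over 3.62% to 7.25%, 3.62% to 6.52%, 13.0% to 22.5%, 7.97% to 10.1%. Over all genes the share with a peak in the gene and flanks was 52.0%, 35.7%, 66.3% and 53.5%. For 2 or more steps it was 4.51%, 1.68%, 11.9% and 3.72% over all genes. In the gene and flanks the share of members was 56.0%, 37.5%, 77.2% and 60.3%. It was 42.9%, 26.1%, 58.7% and 46.2% with no flank and 3.26%, 2.17%, 9.24% and 1.63% for 2 or more steps. It was 21.1%, 22.3%, 22.9% and 20.9% thinned and 14.7%, 19.02%, 17.9% and 13.0% by lowest p. Without single replicates it ranged over 45.7% to 61.6%, 36.2% to 41.3%, 73.2% to 81.9%, 56.5% to 65.2%. Leaving out Umod, Slc12a1 and Slc12a3 moved none of these shares of members by more than 1 SD. A filter of −log10 q of at least 5 left every one of them unchanged, so it could not show how they depend on the threshold.

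The length-matched ratio at ends ranged over 0.332 to 0.591, 0.606 to 0.981, 0.602 to 0.949, 0.601 to 0.755 without single replicates. It was 0.333, 0, 0.0349 and 0.571 for 2 or more steps, where few members had a peak, and 0.666, 0.920, 1.10 and 1.41 at starts matched by CpG number, a setting added after the data were seen. In the gene and flanks it ranged over 0.943 to 1.05, 0.938 to 1.06, 1.06 to 1.10, 0.988 to 1.07 without single replicates, and was 0.350, 1.57, 0.941 and 0.459 for 2 or more steps, 1.09, 1.09, 1.18 and 1.12 with no length match and 0.962, 0.970, 1.02 and 0.915 thinned. With 20 length bins every ratio stayed within 1 SD of its value, and the q-value filter left the ratios almost unchanged.

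No gene passed adjustment in the comparison of times under any setting run. The smallest p-values are bounded by the number of libraries, which put passing almost out of reach, so this result does not show that no gene differs. In the gene and flanks 324 genes stood apart for Sox9 and 425 for H3K4me3 (unadjusted exact permutation p under 0.05 for the same numbers). With peaks as counted these were 216 and 342. Without single replicates they were 478 to 770 and 761 to 966, since fewer libraries overlap less. The replicate numbers do not pair the animals of the times (correlation of deviations -0.0110 to 0.0251). With a replicate block 832 and 1459 genes had all 4 differences in one direction and 0 passed adjustment. The test of this setting flips the signs of 4 differences and cannot give a p under 0.05, so no gene could have passed. Genes with an end peak in 4 of 4 libraries of one time and 0 of the other were 5 for Sox9 and 52 for H3K4me3; a 3000 bp window gave 42 and 115, and at least 3 of 4 against 0 gave 160 and 516. For Slc5a8 the difference of 4 H3K4me3 libraries became 3 with a 3000 bp window and 0 for 2 or more steps or by lowest p. Both values of 0 follow from the height and fold of its start peaks given above, so they are not separate checks. For Dab2 the difference of 4 Sox9 libraries stayed at 4 with no flank, was 1 by lowest p and 0 for 2 or more steps. Depth limits every absence: a gene without a peak is one where none was called.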
